A study of Homo sapiens with 4 samples.

Results

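HMOX1, the gene of the inducible haem oxygenase, was examined together with 8 genes that break down haem or handle oxidants, namely HMOX2, BLVRA, BLVRB, TXN, TXNRD1, SRXN1, OSGIN1 and KEAP1. The genes were taken by symbol from the probe set annotation, and all 9 had 1 probe set each, among 14884 genes with a named probe set. All 9 also passed the filter on low values that left 12755 genes. The set was chosen by the log2 change of HMOX1 between these same arrays, with its partners added by function, so the values of the 9 genes in this contrast are a description and carry no test of their own. The shYTHDF3 group consisted of MDA-MB-231Br cells transduced with a lentivirus carrying a short hairpin RNA against YTHDF3, a reader of N6-methyladenosine on RNA. The shControl group consisted of the same cells with a control hairpin lentivirus, and both groups were selected with puromycin and grown in DMEM with serum. MDA-MB-231Br is a brain-seeking derivative of the triple-negative breast cancer line MDA-MB-231, the name given in the sample titles. RNA of 2 samples per group was hybridised to 1 Affymetrix array each, and nothing in the labels says whether the 2 came from separate cultures, so the errors given cover sample-to-sample spread that could be purely technical. No time after transduction is given in the labels, and YTHDF3 itself was not measured by a named probe set, so the depletion is known here from the labels alone.

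All values are log2 expression, on which a difference of 1 is a 2-fold change, and a difference is shYTHDF3 minus shControl. Array medians ran from 3.20 to 3.22. The line's mesenchymal and basal markers were high, for example VIM at 9.89 in shYTHDF3 and 9.85 in shControl cells and AXL at 11.1 in shYTHDF3 and 11.3 in shControl cells. The hormone receptor genes ESR1 (2.91 in shYTHDF3 and 2.84 in shControl cells) and PGR (2.68 in shYTHDF3 and 2.66 in shControl cells) lay below the array medians. ERBB3 did too, with means of 3.05 in shYTHDF3 and 2.93 in shControl cells. The other luminal and epithelial markers with a named probe set had means above the medians. Among these were KRT18 at 8.96 in shYTHDF3 and 8.45 in shControl cells and EPCAM at 6.70 in both groups. Of 51 markers for this line, luminal cells, red cell precursors, leukocytes, endothelium and brain cells, 30 had a named probe set and 28 were tested, and limma called 0 of them. Over all genes tested it called 0.753%, so nothing is read from this count of 0. The haemoglobin genes were not analysed here.

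Haem oxygenases open the haem ring and release iron, carbon monoxide and biliverdin. HMOX1 is the stress-inducible form and HMOX2 the constitutive one, and biliverdin reductases then turn biliverdin into bilirubin. HMOX1 is a classic target of the transcription factor NRF2, which KEAP1 holds at a low level by presenting it for degradation until oxidants or electrophiles modify KEAP1. NRF2 also drives thioredoxin reductase, sulfiredoxin and many enzymes of glutathione and NADPH supply. HMOX1 is repressed by BACH1 and can be induced through several other stress pathways, and its product is widely studied in tumours as a protective enzyme. The 9 genes thus cover the inducible enzyme, the rest of the haem breakdown route, NRF2-driven enzymes and the brake on NRF2.

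Promoter sequences close to the start were searched for the NRF2 recognition core, and sites further away were not searched. RefSeq windows of 300 bases on GRCh38.p14 ran from 250 bases before to 50 after a transcription start. They were matched for 8 of the 9 genes, in 11 windows. HMOX1 was the gene without a window, so its promoter was not searched. The antioxidant response element core, TGACNNNGC on either strand, was found in windows of 2 genes, TXNRD1 and KEAP1. By gene, 16.1% of all genes with a window and 18.6% of those tested on the arrays held it, and by window 13.3% of all 35116, so it is a common string. The capitals mark the cores in the windows that hold one. KEAP1 had another window, chr19:10503307-10503606, that held none.
TXNRD1, first start, chr12:104215529-104215828, plus strand: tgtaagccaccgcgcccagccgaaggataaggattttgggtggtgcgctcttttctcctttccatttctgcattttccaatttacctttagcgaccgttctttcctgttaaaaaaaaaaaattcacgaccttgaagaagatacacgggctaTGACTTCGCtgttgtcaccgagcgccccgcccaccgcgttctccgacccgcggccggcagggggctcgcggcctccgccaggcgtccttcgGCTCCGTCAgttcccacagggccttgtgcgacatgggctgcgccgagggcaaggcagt
TXNRD1, second start, chr12:104286782-104287081, plus strand: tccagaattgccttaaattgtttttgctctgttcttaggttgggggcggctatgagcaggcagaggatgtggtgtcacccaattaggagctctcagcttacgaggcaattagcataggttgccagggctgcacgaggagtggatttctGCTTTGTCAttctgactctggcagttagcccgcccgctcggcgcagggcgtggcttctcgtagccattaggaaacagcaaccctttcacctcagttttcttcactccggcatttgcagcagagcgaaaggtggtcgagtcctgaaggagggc
KEAP1, chr19:10502722-10503021, minus strand: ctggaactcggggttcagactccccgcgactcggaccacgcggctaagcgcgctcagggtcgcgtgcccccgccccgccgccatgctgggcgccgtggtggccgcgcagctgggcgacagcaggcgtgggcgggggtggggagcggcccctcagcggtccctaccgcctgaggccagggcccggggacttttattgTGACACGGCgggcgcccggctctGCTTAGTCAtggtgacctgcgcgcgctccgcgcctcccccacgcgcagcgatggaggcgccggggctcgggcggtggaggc
Counted from the start, the first TXNRD1 window had TGACTTCGC from base -99 and, in the opposite orientation, GCTCCGTCA from base -8. The second had GCTTTGTCA from base -102. The KEAP1 window had TGACACGGC from base -54 and GCTTAGTCA from base -31. The AP-1 string TGACTCA, which can overlap the antioxidant core, was found in 1 gene's window, that of OSGIN1. It was held by 6.05% of all genes with a window and by 5.29% of those tested on the arrays. By window the share was 4.95%. The core heat shock element and the ATF4 and C/EBP string TGATGCAA were found in 0 of the 11 windows. They were present in 0.490% and 0.866% of all windows.

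HMOX1 fell far more than any other gene of the set. It stood at 5.40 and 5.05 on the shYTHDF3 arrays, against 8.50 and 8.55 on the shControl arrays. Both knockdown arrays were far below both control arrays, and the control arrays differed by 0.05 while the knockdown arrays differed by 0.35. The means were 5.22 ± 0.25 in shYTHDF3 and 8.53 ± 0.03 in shControl cells (SD, n = 2 each). The log2 fold change was -3.30 (SE 0.15, 95% interval -3.67 to -2.94), or 9.88-fold lower, so that 10.1% of the control signal was left. Over the 4 pairings of a knockdown with a control array the difference ran from -3.50 to -3.11. It was the lowest of all 12755 tested genes, and the next lowest was -3.07. The knockdown level remained above the array medians. Array signals compress low values, which could understate the fold, while the choice of HMOX1 for its fall could overstate it. Neither was tested.

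**Figure D1:**
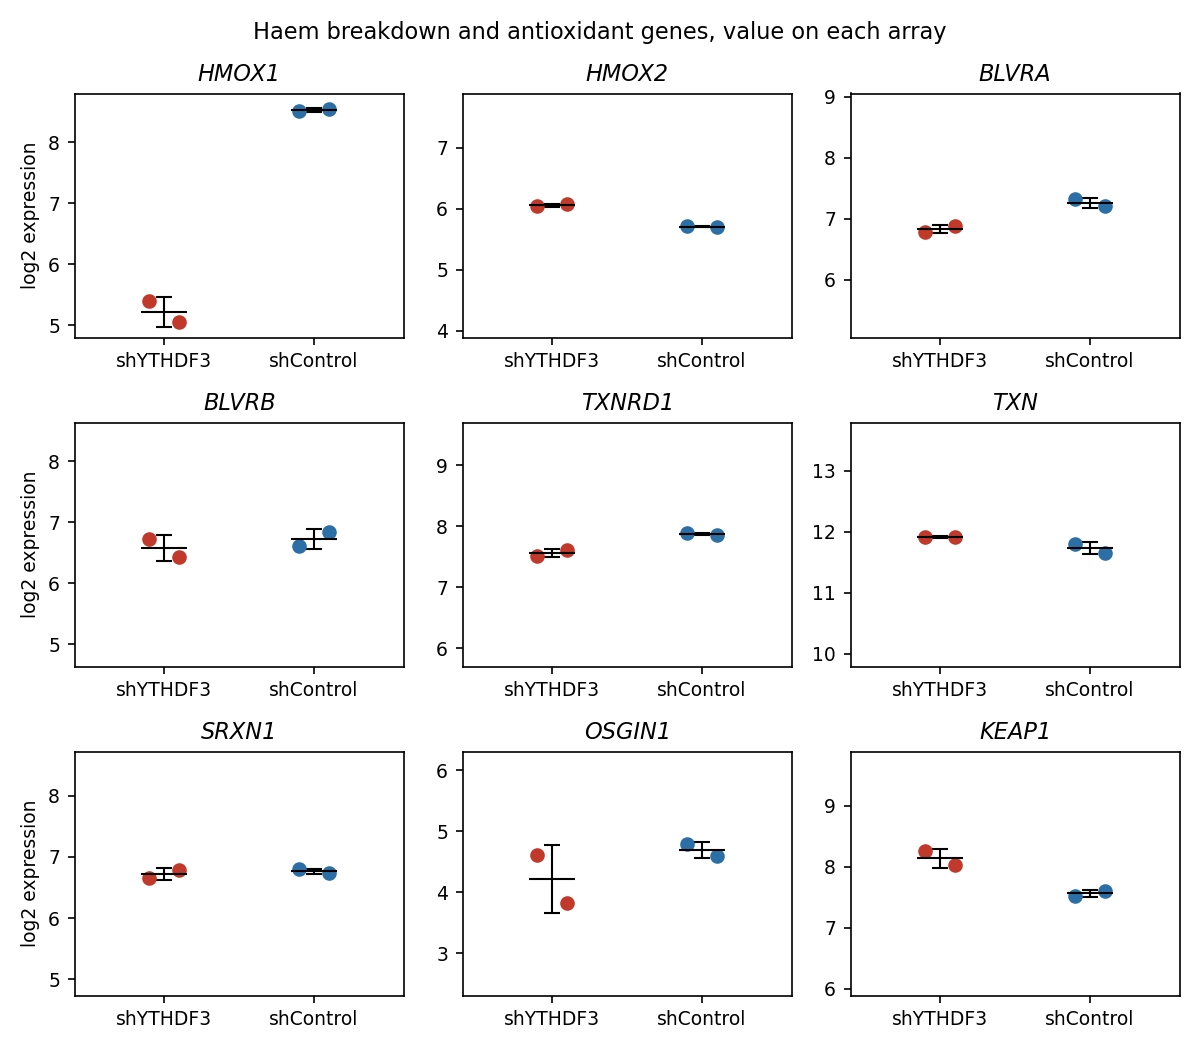
Log2 expression of each gene on each array, with shYTHDF3 arrays in red and shControl arrays in blue; black bars give the mean and SD of 2 arrays. Every panel spans the same number of log2 units. The arrays of HMOX1 lie about 3 units apart between the groups, while the arrays of the other genes lie within 1 unit of each other.

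The other enzymes of haem breakdown had much smaller differences. HMOX2, whose enzyme does the same reaction constitutively, had 6.04 and 6.08 on the shYTHDF3 arrays and 5.71 and 5.70 on the shControl arrays. Both knockdown arrays were above both controls. The difference was 0.35 (SE 0.12, 95% interval 0.06 to 0.64), opposite in sign to that of HMOX1. BLVRA, biliverdin reductase A, which makes bilirubin, had 6.78 and 6.88 on the shYTHDF3 arrays and 7.32 and 7.20 on the shControl arrays. Its groups did not overlap, with the knockdown arrays lower, and the difference was -0.43 (SE 0.13, 95% interval -0.74 to -0.13). BLVRB, which reduces flavins and fetal-type biliverdin, had 6.73 and 6.43 on the shYTHDF3 arrays and 6.60 and 6.83 on the shControl arrays. Here the groups overlapped, and the difference of -0.14 (SE 0.16) had an interval of -0.51 to 0.24. Neither HMOX2 nor the reductases passed the threshold of the fit across all genes.

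Differences in the thioredoxin arm were small as well. TXN, the small dithiol protein that reduces oxidised proteins, had 11.92 and 11.91 on the shYTHDF3 arrays and 11.80 and 11.66 on the shControl arrays. The knockdown arrays were above the controls by 0.19 (SE 0.13, 95% interval -0.12 to 0.49). TXNRD1, the selenoenzyme that recharges thioredoxin with NADPH and whose windows hold the antioxidant core shown above, had 7.52 and 7.60 on the shYTHDF3 arrays and 7.88 and 7.85 on the shControl arrays. Its knockdown arrays were both lower, by -0.31 (SE 0.13, 95% interval -0.60 to -0.01). SRXN1, sulfiredoxin, which repairs over-oxidised peroxiredoxins and is a sensitive NRF2 target, had 6.66 and 6.79 on the shYTHDF3 arrays and 6.80 and 6.73 on the shControl arrays. The groups overlapped, and its difference of -0.04 (SE 0.13, 95% interval -0.35 to 0.26) was the smallest of the 9.

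OSGIN1, an oxidative stress-induced growth inhibitor, was the least reproducible of the 9 genes. It had 4.61 and 3.82 on the shYTHDF3 arrays and 4.79 and 4.60 on the shControl arrays. One knockdown array lay within the control range and the other 0.78 below its partner, so the groups overlapped. The difference was -0.48 (SE 0.24, 95% interval -1.05 to 0.09). Leaving out shYTHDF3 replicate 2 gave -0.09, and leaving out shYTHDF3 replicate 1 gave -0.87. KEAP1, the adaptor through which NRF2 is degraded, had 8.25 and 8.03 on the shYTHDF3 arrays and 7.53 and 7.61 on the shControl arrays. Both knockdown arrays were higher, and the difference of 0.57 (SE 0.14, 95% interval 0.25 to 0.90), or 1.49-fold, was the second largest in size among the 9 genes. In size it was 495th among all 12755 tested genes, and it did not pass the threshold.

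**Figure D2:**
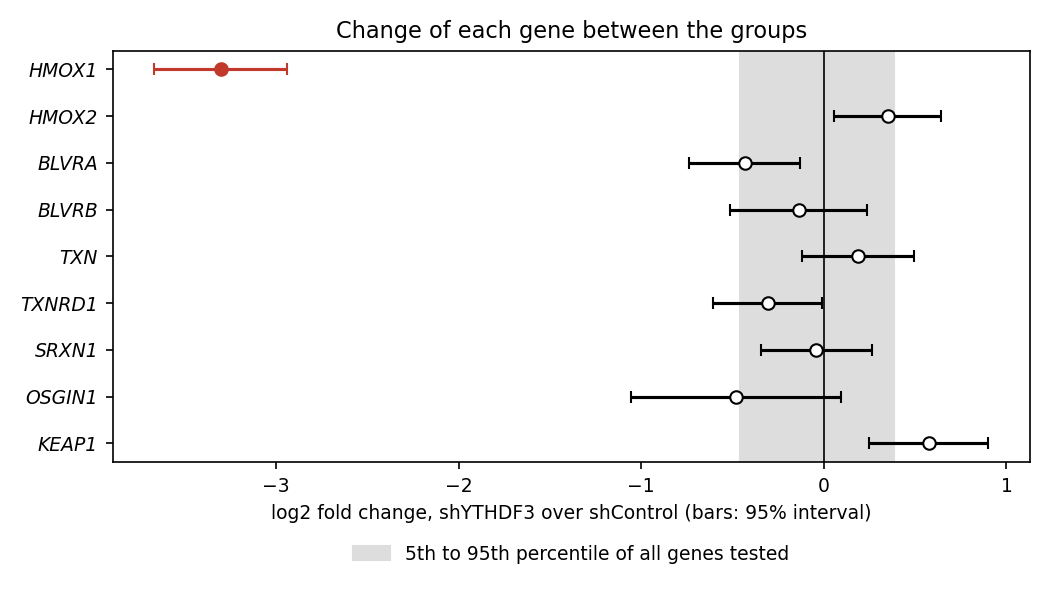
Log2 fold change of each gene, shYTHDF3 over shControl, with its 95% interval from limma, not adjusted for the number of genes. The filled red point passed the threshold over all genes, and the grey band runs from the 5th to the 95th percentile of all genes tested (-0.46 to 0.38). HMOX1 lies at -3.30, and the other 8 lie between -0.48 and 0.57.

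With limma and an adjusted p under 0.05 over all 12755 genes, 1 of the 9 genes was lower, HMOX1, and 0 were higher. Over all genes tested 0.753% passed in either direction, 0.666% lower and 0.0862% higher, and since HMOX1 was chosen in this contrast nothing is read from its count. Of the other 8 genes 0 passed, and 4 had an unadjusted p under 0.05, 2 lower (BLVRA and TXNRD1) and 2 higher (HMOX2 and KEAP1). Over all genes tested 14.7% had such a p, 8.48% lower and 6.24% higher, and nothing is read from the count of 4, since these genes were set in the same contrast. The groups did not overlap for 6 of the 9 genes, where 45.5% of all tested genes did not overlap. The median log2 fold change of the other 8 genes was -0.09, against 0.004 for all genes tested, and 5 of the 8 were negative. No 95% interval of the 8 reached below -1.05 or above 0.90, whereas that of HMOX1 ended at -2.94. After subtraction of the median of the other 8 genes on the same array, HMOX1 was at -1.36 and -1.78 on the shYTHDF3 arrays and at 1.44 and 1.53 on the shControl arrays. On the question whether HMOX1 fell alone, none of the other 8 genes had a change of comparable size. Over all genes tested, only 11 were called lower by at least 2 on the log2 scale. HMOX1 was chosen for its fall, so nothing further is read from this contrast in size. Smaller differences did not pass the threshold with 2 arrays a group. BLVRA and TXNRD1 were lower and HMOX2 and KEAP1 higher, with intervals that left out 0. The interval of OSGIN1 included 0. Without shControl replicate 1, and likewise without shControl replicate 2, the fit called 0 genes in all, HMOX1 among those lost, although the HMOX1 difference was -3.33 and -3.28.

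A wider list of NRF2 targets, without the 9 genes, held no gene past the threshold. Passing was rare, at 0.753% of all genes tested, so nothing is read from a count of 0 in a list this short. Of 40 listed genes 15 were tested, and limma called 0 lower and 0 higher, while 1 and 2 of them had an unadjusted p under 0.05 in those directions, where all genes tested had 8.48% and 6.24%. The list's median was 0.09, against 0.004 for all genes tested, and 9 of the 15 differences were positive. UGDH, which makes the UDP-glucuronate used in glucuronidation, came nearest with 8.93 and 8.95 on the shYTHDF3 arrays against 9.85 and 9.65 on the shControl arrays. Its difference of -0.81 (SE 0.14) had an adjusted p of 0.055 from limma over all genes. The call was gained, with UGDH lower, at a filter on the 50th percentile, with median centring, with repeated quantile normalization and with a variance prior that follows intensity. The carbonyl reductases CBR3 and CBR1 had 0.42 and 0.31, the glutathione transferase GSTM3 had 0.40, and PRDX1, an abundant peroxiredoxin, had 0.27, with adjusted p-values of 0.23 to 0.38 from limma. The widely used NRF2 targets NQO1, GCLC, GCLM, SLC7A11, FTH1 and FTL were not analysed here, so the list is a partial view of the programme. The antioxidant core was in a promoter window of 4 of the 12 tested targets matched in RefSeq, namely CBR1, FECH, MGST1 and PGD, where 18.6% of genes tested on the arrays held it, and their differences ran from -0.18 to 0.31.

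The genes that set NRF2 activity showed no member past the threshold either, where 0.753% of all genes tested passed. In a list this short nothing is read from that. Of 18 listed 14 were tested, with a median of 0.11 and 10 positive differences. NFE2L2, which encodes NRF2, had 6.80 and 6.86 on the shYTHDF3 arrays and 7.07 and 7.01 on the shControl arrays. The knockdown arrays were lower by -0.21 (SE 0.13, 95% interval -0.51 to 0.08, adjusted p = 0.48 from limma). DPP3, a peptidase that competes with NRF2 for KEAP1, had 0.40 (adjusted p = 0.22 from limma), and MAFF, a small MAF partner, had -0.32 (adjusted p = 0.33 from limma). AMER1 and SQSTM1, the second an autophagy receptor that binds KEAP1, had 0.26 and 0.25. BACH1, the haem-sensing repressor of HMOX1, was not analysed here. Transcript levels do not report NRF2 protein or its activity, which is controlled largely through degradation.

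Haem supply and iron handling showed no gene past the threshold, which only 0.753% of all genes tested passed. In lists this short nothing is read from that. Of 8 tested haem synthesis genes the median was -0.01. UROD, uroporphyrinogen decarboxylase, stood at 7.85 and 7.89 on the shYTHDF3 arrays and 7.41 and 7.52 on the shControl arrays, a difference of 0.40 (adjusted p = 0.22 from limma). TMEM14C, a mitochondrial carrier protein of the pathway, had -0.28, and FECH, ferrochelatase, which inserts the iron, had -0.18. Among 7 tested genes of haem transport and haem sensing the median was -0.04. FLVCR1, long described as a haem exporter, had 7.73 and 7.51 on the shYTHDF3 arrays and 7.21 and 7.07 on the shControl arrays, so that both knockdown arrays were higher. Its difference was 0.48 (SE 0.14, adjusted p = 0.19 from limma). LRP1, the receptor that takes up haem bound to haemopexin, had -0.39, and the haem-binding protein gene HEBP1 had 0.27. The 12 tested iron handling genes had a median of -0.03, and their differences ran from -0.57 for LCN2, a siderophore binder with arrays that overlapped, to 0.19 for TFR2. The rate-limiting synthesis gene ALAS1, the electron donor gene POR and the iron genes TFRC and SLC40A1 were not analysed here, and of the bilirubin handling list only GSTA1 was tested, at 0.47 with overlapping arrays.

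The thioredoxin, glutathione, peroxide removal and peroxide source lists held no gene past the threshold, beside 0.753% of all genes tested. In lists this short nothing is read from that. The selenoprotein list is described in the last section. The thioredoxin and peroxiredoxin list had 21 of 22 members tested, a median of 0.09 and 13 positive differences. GLRX5, a mitochondrial glutaredoxin of iron-sulfur cluster and haem synthesis, had 6.12 and 6.20 on the shYTHDF3 arrays and 5.48 and 5.57 on the shControl arrays. Both knockdown arrays were higher, by 0.63 (SE 0.13, 1.55-fold, adjusted p = 0.093 from limma). GLRX, the cytosolic glutaredoxin, had -0.45, and MSRB2 and GLRX2 had 0.38 and 0.35. The glutathione list had 24 of 35 members tested and a median of 0.03. GSTM4, a glutathione transferase, had 4.81 and 4.84 on the shYTHDF3 arrays and 5.49 and 5.71 on the shControl arrays, a difference of -0.77 (adjusted p = 0.066 from limma). GSTM3 of the same family had the opposite sign at 0.40, and paralogs of this family can share probe sequence, so both values are uncertain. The 6 tested genes of superoxide and peroxide removal ran from -0.15 for catalase (CAT) to 0.09 for GPX4. The 8 tested genes of superoxide and peroxide sources ran from -0.19 for NOXO1 to 0.31 for XDH. Where limma's variance prior followed intensity, it called GLRX5 higher and GSTM4 lower, and KEAP1 higher as well. GSTM4 was also called lower with the filter at the 50th percentile.

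**Figure D3:**
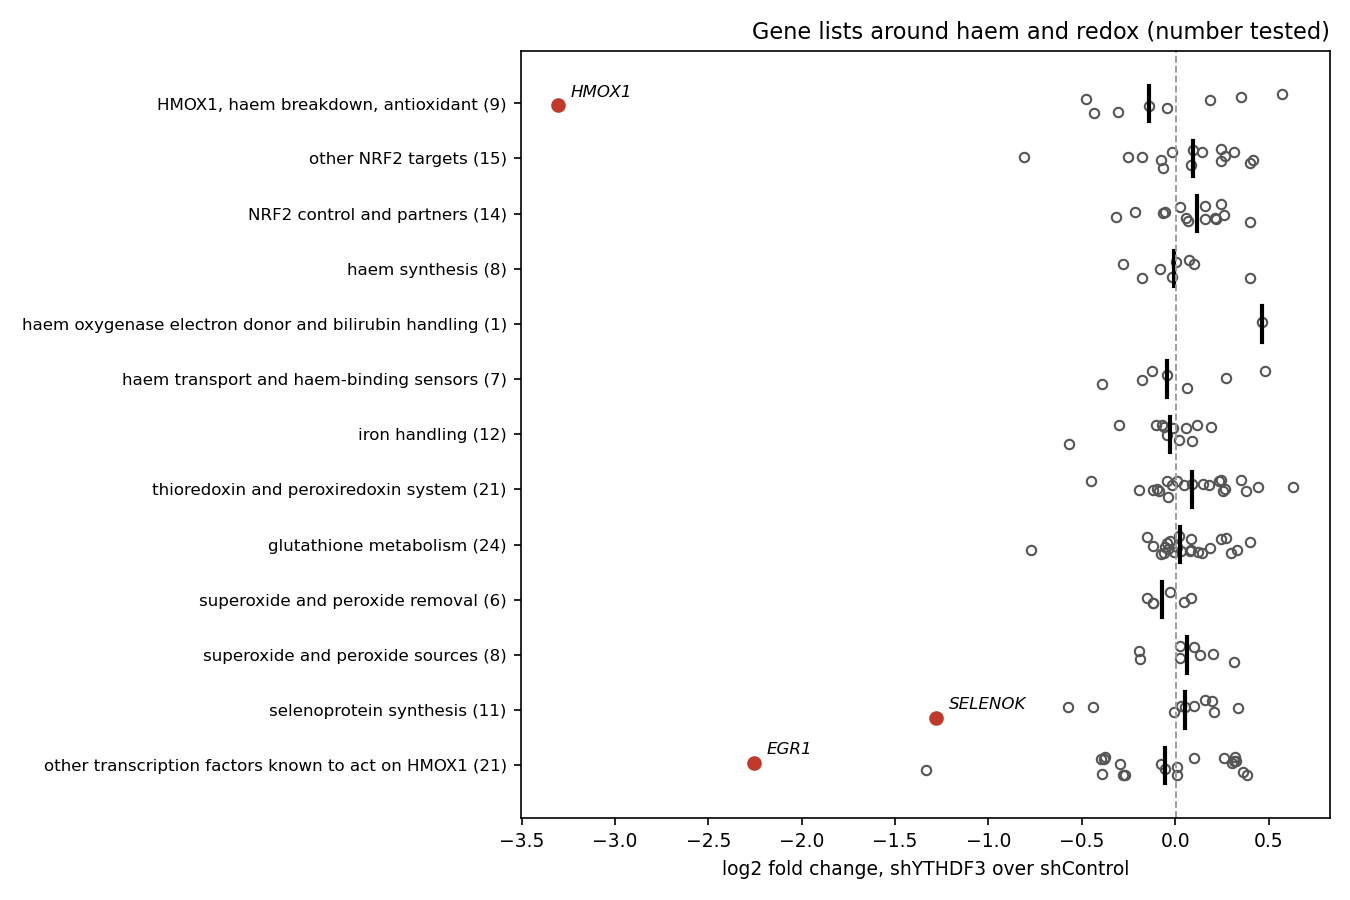
Log2 fold change, shYTHDF3 over shControl, of every tested gene in the 9-gene set and in the 12 lists; black bars are list medians and the dashed line is the median of all genes tested. Filled red points passed the threshold over all genes. HMOX1, SELENOK and EGR1 are the 3 genes past it, and the list medians lie near 0 apart from the list with 1 gene.

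Transcription factors that are known to act on the HMOX1 gene were listed to set their levels beside it. Of 26 listed 21 were tested, and 1 was called lower, EGR1, while 0 were called higher. Over all genes tested 0.666% were called lower and 0.0862% higher. An unadjusted p under 0.05 was reached by 5 lower and 4 higher genes of the 21, against 8.48% lower and 6.24% higher over all genes tested, and the median was -0.05. EGR1, an immediate early zinc finger factor, had 4.98 and 5.59 on the shYTHDF3 arrays and 7.58 and 7.50 on the shControl arrays. Its difference was -2.25 (SE 0.20, adjusted p = 0.0047 from limma), and its second probe set had -0.54. ATF3, a stress-induced factor, had 3.67 and 2.74 on the shYTHDF3 arrays and 4.51 and 4.56 on the shControl arrays. The knockdown arrays lay on either side of the array medians, and the difference of -1.33 (SE 0.27) had an adjusted p of 0.093 from limma. ATF3 was called lower where the variance prior followed intensity and without shYTHDF3 replicate 1, the higher of its knockdown arrays. FOSL1, YY1 and ATF2 had -0.39, 0.38 and -0.38 with adjusted p-values of 0.25, 0.29 and 0.32 from limma. The heat shock factor gene HSF1 and the integrated stress response factor gene ATF4, both named after their values were seen, had differences of 0.01 each, with 95% intervals of -0.31 to 0.33 and -0.29 to 0.31.

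The genes whose 4 array values were most like those of HMOX1 came from outside the haem and antioxidant lists. Likeness was the root mean square distance between profiles after each was centred on its own mean, over 4 arrays and against 12754 other genes. The 8 nearest were KRTAP4-8 (0.21), the endoplasmic reticulum chaperone gene SDF2L1 (0.26), the heat shock gene HSPA1A (0.30) and DDIT3, which encodes the stress factor CHOP (0.30). TMEM50B (0.40), the mTORC1 inhibitor gene SESN2 (0.43), the heat shock gene HSPA1B (0.48) and DDIT4, another mTORC1 inhibitor gene (0.61), followed. The distance measures the size of the group difference as well as its shape, and HMOX1 had the largest difference, so nearest genes are among the largest falls. HSPA1A and HSPA1B are near-identical copies, and the second probe set of TMEM50B differed by only -0.02. On the shYTHDF3 arrays KRTAP4-8 (3.38 and 3.35) and DDIT3 (3.28 and 3.70) lay little above the array medians. Whether weak signal limits the size of their falls was not tested. The distances of the other 8 listed genes ran from 1.42 for OSGIN1 to 1.94 for KEAP1. In rank, OSGIN1 was 562nd and BLVRA 701st in nearness among the 12754 genes, while HMOX2 was 11891st and KEAP1 12595th.

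**Figure D4:**
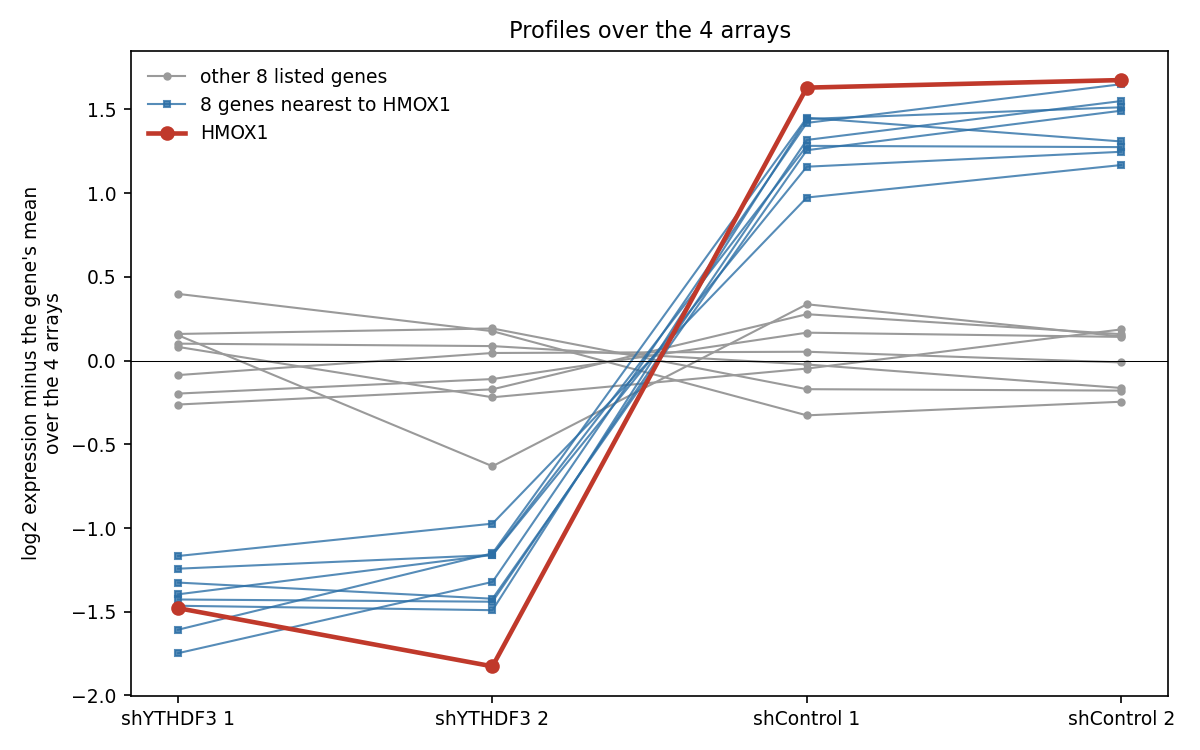
Log2 expression on each of the 4 arrays after subtracting the gene's mean over the arrays. HMOX1 is in red, its 8 nearest genes in blue and the other 8 listed genes in grey; lines only join the values of a gene. The red and blue profiles lie below 0 on both shYTHDF3 arrays and above 0 on both shControl arrays, while the grey profiles stay within 1 unit of 0.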

How the data were processed

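The deposited table held log2 expression values made by the authors, 1 column per array and 1 row for each of 53617 probe sets. Per the submitters' processing notes RMA was used, with no settings given in the sources used here. The method removes background, equalises arrays and combines probes into 1 value, which compresses weak signals. Values ran from 1.08 to 14.0. In the platform annotation 16098 probe sets carried 1 gene symbol and 0 carried several, and the other 37519 (70.0%) have no name here. RefSeq matched all 16098 Entrez identifiers and changed 0 symbols. The number of arrays limits the precision.

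The probe set of highest mean stood for its gene, and genes with a mean at or above 2.54, the 30th percentile over the whole table, entered the test. The fit used lmFit and eBayes of limma 3.58.1 (R 4.3.3) with group as the only term, 2-sided, and p-values were adjusted by Benjamini-Hochberg over 12755 genes at a threshold of 0.05. The smallest 2-sided p by permuting 4 arrays is 0.333, so calls rest on the variance that limma pools over genes. Data for this comparison were simulated over 12755 genes, with spreads drawn from the variance model that limma had fitted. From these limma recovered 74% of 100 genes changed by 1 and 100% of 100 changed by 2 on the log2 scale. There were 6 false calls among 180. Real arrays may depart from that model, so these shares may not hold for them. Promoter motifs were counted in RefSeq windows.

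The 9 genes, the 12 lists and the tests were chosen with earlier results of these data known. Lists are described by counts and medians. Named genes were the 9; in each list, genes past the threshold and up to 4 others of smallest p; 11 direct partners where tested; and the 8 nearest profiles. Others are named as examples after their values were seen. The settings varied were the filter, the choice of probe set, normalization, the variance model, unnamed probe sets, a replicate block and each array left out.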

Additional observations from a re-analysis of the deposited data

How the results depend on the processing

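The log2 fold change of HMOX1 ran from -3.30 to -3.29 over the 9 alternatives that kept all arrays and from -3.48 to -3.13 with 1 array left out. The median of the other 8 genes ran from -0.09 to -0.07 and from -0.13 to -0.04. Signs of those 8 were kept in the 9 alternatives, and with 1 array left out BLVRB (-0.29 to 0.01) and SRXN1 (-0.11 to 0.02) crossed 0. The number of the 9 genes called was 1 in 8 of the 9 alternatives, 2 with an intensity trend, and 0 to 1 with 1 array left out. The number of all genes called, 96, was 167 with a filter at the 50th percentile, 375 with an intensity trend, 19 with all probe sets in the fit, and 0 to 36 with 1 array left out. Of all genes, 85 were lower and 11 higher, against 272 and 103 with the trend. Among the 137 other listed genes tested 2 were called, against 1 with no filter, 4 at the 50th percentile, 6 with the trend, 0 with all probe sets, and 0 to 2 with 1 array left out. Leaving out 1 control leaves the other assumed to vary like the knockdown arrays. Fitting more rows or fewer genes changes the adjustment by construction, and limma's variance prior is then also fitted anew. How much each contributed was not tested, and for the other settings the cause was not tested either.

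With the replicate number as a replicate block, 11 genes were called, all lower and HMOX1 among them, and 0 of the 137 listed genes. The deviations of same-numbered arrays correlated at 0.043 across genes, and nothing in the labels pairs them. Whether these arrays share more than a number is not known.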

Other observations

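The list named selenoprotein synthesis, which mixes the machinery that inserts selenocysteine with some selenoproteins, held 1 gene past the threshold. SELENOK, a selenoprotein of the endoplasmic reticulum membrane, had 3.97 and 4.57 on the shYTHDF3 arrays and 5.58 and 5.52 on the shControl arrays. Both knockdown arrays were lower, by -1.28 on the log2 scale (SE 0.20, 2.43-fold), with an adjusted p of 0.046 from limma over all genes. SELENOK was not called with no filter, with repeated quantile normalization, with all probe sets in the fit, with the replicate block, without shYTHDF3 replicate 1 or without either control array. SELENOS, another selenoprotein of that membrane, had 5.48 and 5.69 on the shYTHDF3 arrays and 6.15 and 6.16 on the shControl arrays, a difference of -0.57 (adjusted p = 0.13 from limma). SEPSECS, which makes selenocysteine on its tRNA, had -0.44, and SEPHS1, of the selenophosphate synthetase family, had 0.33, with adjusted p-values of 0.25 and 0.32 from limma. Of the 13 genes on this list 11 were tested, 1 was lower and 0 higher, and the median was 0.05. Over all genes tested 0.666% were called lower and 0.0862% higher. An unadjusted p under 0.05 was reached by 3 lower and 1 higher gene of the 11, against 8.48% and 6.24% over all genes tested.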
